A study of Mus musculus with 12 samples.

Results

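The genes Hoxb1 to Hoxb9 of the mouse Hoxb cluster were followed on expression arrays through the first hours of retinoic acid (RA) exposure of KH2 cells, a mouse embryonic stem (ES) cell line. They were represented by every probe set whose platform gene symbol field holds 1 of the 9 names, which gave 11 of the 45101 probe sets on the array. Hoxb3 and Hoxb4 had 2 probe sets each. Probe set 1452493_s_at is annotated to Hoxb8 together with Hoxb7, so Hoxb8 had no probe set of its own, while Hoxb7 had a further one. The 12 arrays form 4 groups of 3, with replicates lettered A, B and C: untreated cells (no RA), and cells kept for 2, 4 or 6 h in a differentiation medium (DMEM, 10% serum, NAA) with 0.3 µM RA. All groups came from KH2 cells cultured on feeder cells and replated on gelatin for 30 min before RNA was taken, and the protocols differ on whether attached or unattached cells were kept. No label states that untreated cells were moved to the differentiation medium. In differences from no RA, a change of medium and RA itself therefore cannot be told apart. Nor is it stated that A, B and C were grown as separate cultures, and p-values here reflect only the variation among these samples, which may be technical.

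Hox genes encode homeodomain transcription factors that give cells their position along the head-to-tail axis. Within a cluster the low-numbered genes lie at the 3′ end and are typically activated earlier and more anteriorly than the high-numbered genes at the 5′ end, an arrangement called colinearity. RA, a vitamin A derivative, binds RA receptors paired with RXR receptors on DNA elements built from repeated hexamers. Known elements of this kind lie around Hoxb1 and Hoxb4 and between Hoxb4 and Hoxb5, and RA-treated ES cells are a long-used model of Hox activation.

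Of the 9 genes, Hoxb1, Hoxb4 and Hoxb8 were matched in the RefSeq promoter table (GRCm38.p6). Hoxb2, Hoxb3, Hoxb5, Hoxb6, Hoxb7 and Hoxb9 were not. The 250 bases before each start are shown for the genes that were matched. Their probe sets were called below at 2, 4 and 6 h (Hoxb1), at 4 and 6 h (Hoxb4) and at 6 h (Hoxb8, shared with Hoxb7). A link between the motifs and these times was not tested. All the windows are on the plus strand, at chr11:96365508-96365757, chr11:96318017-96318266 and chr11:96281655-96281904 for Hoxb1, Hoxb4 and Hoxb8. Capitals mark matches, on either strand, to the motifs listed after them.
Hoxb1: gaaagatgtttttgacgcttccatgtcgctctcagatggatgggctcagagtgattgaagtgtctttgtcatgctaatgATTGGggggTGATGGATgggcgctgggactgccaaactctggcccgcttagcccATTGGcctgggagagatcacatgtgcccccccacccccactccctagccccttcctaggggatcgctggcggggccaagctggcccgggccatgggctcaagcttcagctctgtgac
Hoxb4: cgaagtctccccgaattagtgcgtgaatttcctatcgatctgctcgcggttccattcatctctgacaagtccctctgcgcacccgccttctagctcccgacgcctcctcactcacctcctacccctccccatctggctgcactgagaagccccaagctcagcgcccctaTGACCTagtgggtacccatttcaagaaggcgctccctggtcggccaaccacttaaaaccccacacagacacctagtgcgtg
Hoxb8: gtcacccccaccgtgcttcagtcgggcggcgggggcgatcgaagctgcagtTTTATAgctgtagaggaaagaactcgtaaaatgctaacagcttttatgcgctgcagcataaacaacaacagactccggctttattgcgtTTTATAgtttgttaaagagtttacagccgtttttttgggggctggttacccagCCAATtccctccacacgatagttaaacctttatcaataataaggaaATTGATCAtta

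The motifs searched on both strands included 4 receptor-binding hexamers, the consensus AGGTCA with the variants GGGTCA, with 1 base changed, AGTTCA, with another, and GGTTCA, with both changed. The others were direct repeats of such hexamers with 1, 2 or 5 bases between them, the PBX-HOX motif TGATNNAT, the TATA box TATAAA and the CCAAT box. The Hoxb1 window held 1 TGATNNAT match (TGATGGAT, 162 to 155 bases before the start) and 2 CCAAT matches, and none of the hexamers. PBX and HOX proteins are known to bind upstream of mouse Hoxb1 in an autoregulatory element of the hindbrain. TGATNNAT was present in 7.68% of 32851 promoter windows of the same length. The Hoxb4 window held 1 hexamer, AGGTCA on the minus strand, 81 to 76 bases before the start, where 14.0% of all windows hold AGGTCA and 38.6% hold any of the 4 hexamers. In the Hoxb8 window there were 2 TATAAA matches, 1 CCAAT match and 1 TGATNNAT match, against 12.4%, 33.8% and 7.68% of all windows with at least 1. Both TATAAA matches were on the minus strand, opposite to the gene, 199 to 194 and 110 to 105 bases before the start. The direct repeats were in 0.164%, 0.174% and 0.0883% of all windows (1, 2 and 5 bases between), and in none of these 3. No motif counted here overlapped another, apart from AGGTCA being among the hexamers. A match is a description of the letters, and its absence says only that the letters are not in this window.

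Values are the log2 signals that the authors deposited. The median of all of them was 6.07, and array medians lay between 6.05 and 6.10. No detection call was used here, so a fold is printed only where both groups lie above 6.07 on every array. Elsewhere a log2 difference is that of the deposited signals, and where the untreated signal is dim it may understate the change in RNA. Untreated replicate C stood slightly apart, with a correlation of 0.993 to its group mates over all probe sets, where the other pair reached 0.997 and pairs of RA arrays of 1 time reached 0.997 to 0.998. Without untreated replicate C the counts of called Hoxb probe sets at 2, 4 and 6 h against no RA were 1, 6 and 7, as with it. All 10 ES cell markers, Pou5f1 and Nanog among them, exceeded 6.07 on each array. Of 19 measured feeder fibroblast markers, 1 to 4 lay under it on an array. The summed linear signal of the fibroblast markers was 6288 to 9536 on untreated arrays, 7929 to 9202 at 2 h, 8343 to 10246 at 4 h and 7441 to 8856 at 6 h. Fibroblasts from embryos can express Hox genes, and the part of feeder RNA in the levels below was not tested. In such mixed RNA, fewer cells of a type and less RNA per cell cannot be told apart.

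Hoxb1 was the only 1 of the 11 probe sets called higher at 2 h. At 4 h 6 probe sets of Hoxb1 to Hoxb5 were called higher, and at 6 h 7, the seventh being the probe set shared by Hoxb8 and Hoxb7. None was called lower at any time. The probe sets of Hoxb6, Hoxb7 alone and Hoxb9 and 1 of the pair for Hoxb3 did not pass at any time. These calls are at a Benjamini-Hochberg adjusted p under 0.05 by limma over 45037 probe sets, of which 0.904%, 9.34% and 10.8% were called higher at 2, 4 and 6 h and 0.906%, 9.36% and 9.83% lower. All 11 probe sets had a log2 difference above 0 at each time. Their median difference was 0.33, 0.67 and 1.00 at 2, 4 and 6 h, where the median of all probe sets was 0.0082, 0.0057 and -0.011. The 3 RA arrays all lay above the 3 untreated arrays for 5, 8 and 9 of the 11, against 9.89%, 16.1% and 16.3% of all probe sets. The 3 comparisons share the untreated arrays. By the F test for any change over the 4 groups 7 of the 11 were called, against 25.9% of all probe sets.

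**Figure D1:**
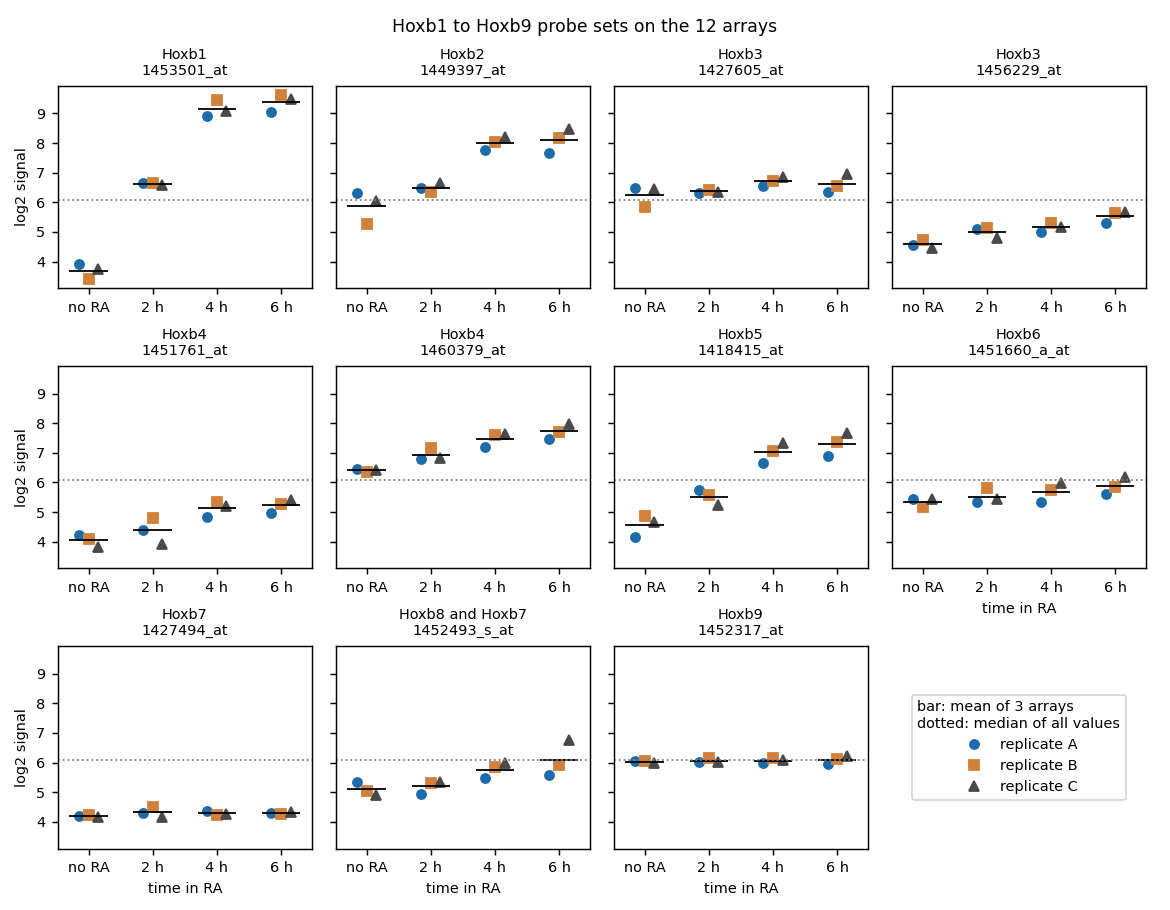
Log2 signal of each Hoxb probe set (y axis, the same range in every panel) on the 12 arrays, by time in RA (x axis). Points are arrays, marked by replicate letter, bars are means of 3 arrays and the dotted line is the median of all deposited values (6.07). Hoxb1 lies under that line without RA and between 8.90 and 9.63 at 4 and 6 h, while Hoxb9 stays within 5.96 to 6.21 on all arrays.

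Hoxb1, which specifies the fourth hindbrain segment and the facial motor neurons that arise there, was called higher at all 3 times. Its log2 signal (1453501_at) was 3.91, 3.41 and 3.76 in untreated replicates A, B and C, 6.64, 6.66 and 6.57 at 2 h, 8.90, 9.45 and 9.08 at 4 h, and 9.05, 9.63 and 9.48 at 6 h. No array of 2 h overlapped with those of no RA or of 4 h, whereas the arrays of 4 and 6 h overlapped. The log2 difference from no RA was 2.93 ± 0.17 (SE, adjusted p = 2.16e-06) at 2 h, 5.45 ± 0.17 (adjusted p = 6.04e-09) at 4 h and 5.69 ± 0.17 (adjusted p = 3.91e-09) at 6 h. All 3 untreated arrays were below 6.07, so the size of these differences depends on a dim baseline. Between 2 and 4 h no probe set on the array rose more than that of Hoxb1, which gained 2.52 ± 0.17 (adjusted p = 7.12e-06). From 4 h the difference was 0.24 ± 0.17 at 6 h, which did not pass (adjusted p = 0.661).

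Hoxb2, a hindbrain gene that is a target of Hoxb1 and Egr2 in the mouse, had log2 signals (1449397_at) of 6.33, 5.28 and 6.05 in untreated replicates A, B and C, 6.49, 6.37 and 6.64 at 2 h, 7.77, 8.03 and 8.21 at 4 h, and 7.66, 8.16 and 8.46 at 6 h. Untreated replicate B was the lowest of the 12, and every RA array lay above every untreated one. The difference was 0.61 ± 0.25 (SE) at 2 h, which did not pass (adjusted p = 0.254), and rose to 2.12 ± 0.25 (adjusted p = 0.000118) at 4 h and 2.20 ± 0.25 (adjusted p = 7.04e-05) at 6 h. Without untreated replicate B the 2 h difference was 0.31 (adjusted p = 0.489). At 4 h against 2 h it was 1.51 ± 0.25 (adjusted p = 0.00147). Untreated values had an SD of 0.54, the widest of the untreated groups of these probe sets.

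Hoxb3, which acts in the posterior hindbrain, gave different calls on its pair of probe sets. On 1456229_at the log2 signal was 4.55, 4.74 and 4.46 without RA, 5.09, 5.13 and 4.80 at 2 h, 5.01, 5.30 and 5.18 at 4 h, and 5.30, 5.62 and 5.69 at 6 h, in the order A, B and C. All 12 values were below 6.07, the array-wide median, and the RA arrays did not overlap with the untreated ones. The differences were 0.42 ± 0.13 (SE) at 2 h, which did not pass (adjusted p = 0.127), 0.58 ± 0.13 (adjusted p = 0.00676) at 4 h and 0.95 ± 0.13 (adjusted p = 0.000224) at 6 h. The brighter probe set 1427605_at ranged from 5.84 to 6.47 without RA, 6.31 to 6.43 at 2 h, 6.54 to 6.87 at 4 h and 6.35 to 6.96 at 6 h. It had 0.12 ± 0.18, 0.46 ± 0.18 and 0.36 ± 0.18 and did not pass at any time (adjusted p = 0.798, 0.0942 and 0.186). The difference between the probe sets was 0.30, 0.12 and 0.59 at 2, 4 and 6 h, with exact two-sided permutation p = 0.4, 0.8 and 0.2, where 3 against 3 arrays cannot go below 0.1. The arrays of the groups overlapped in this difference at each time.

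Hoxb4, a gene of the posterior hindbrain and neck region that also promotes expansion of blood stem cells, rose on both of its probe sets. The log2 signal of 1460379_at was 6.46, 6.36 and 6.41 without RA, 6.80, 7.16 and 6.82 at 2 h, 7.19, 7.61 and 7.64 at 4 h, and 7.48, 7.71 and 7.99 at 6 h. All arrays lay above the median of all values and the RA arrays did not overlap with the untreated ones. Signal was 2.10-fold higher at 4 h (log2 difference 1.07 ± 0.15, SE, adjusted p = 0.000362) and 2.49-fold higher at 6 h (1.32 ± 0.15, adjusted p = 7.21e-05), after 0.52 ± 0.15 at 2 h, which did not pass (adjusted p = 0.111). On the dimmer 1451761_at the values were 4.24, 4.09 and 3.82 without RA, 4.41, 4.79 and 3.94 at 2 h, 4.84, 5.34 and 5.21 at 4 h, and 4.98, 5.29 and 5.41 at 6 h. There the 2 h arrays overlapped with the untreated ones, and the differences were 0.33 ± 0.20 (adjusted p = 0.463) at 2 h, 1.08 ± 0.20 (adjusted p = 0.0026) at 4 h and 1.17 ± 0.20 (adjusted p = 0.00127) at 6 h. The pair differed from each other by 0.19, -0.0081 and 0.14 at 2, 4 and 6 h (exact permutation p = 0.5, 0.9 and 0.4). Against 2 h, the rises at 4 h of 0.56 ± 0.15 and 0.75 ± 0.20 passed (adjusted p = 0.022 and 0.0232). Both of those calls were lost without replicate A or C of 2 h and without replicate B or C of 4 h.

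Hoxb5, which acts in the neck and upper trunk and in the enteric nervous system, was called higher at 4 and 6 h. Its log2 signal (1418415_at) was 4.17, 4.88 and 4.68 without RA, 5.75, 5.57 and 5.25 at 2 h, 6.65, 7.05 and 7.34 at 4 h, and 6.89, 7.36 and 7.65 at 6 h. The groups of no RA, 2 h and 4 h did not overlap with each other, and those of 4 and 6 h did. The differences from no RA were 0.95 ± 0.23 (SE, adjusted p = 0.0637) at 2 h, 2.44 ± 0.23 (adjusted p = 3.03e-05) at 4 h and 2.73 ± 0.23 (adjusted p = 1.02e-05) at 6 h. The 2 h value missed the threshold here, and passed in 4 of 15 alternative fits. It passed without untreated replicate B (adjusted p = 0.0453). Without untreated replicate A or 2 h replicate A it did not (adjusted p = 0.175 and 0.215). The step between 2 and 4 h was 1.49 ± 0.23 (adjusted p = 0.00113).

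The probe set shared by Hoxb8 and Hoxb7 passed the test at 6 h. Hoxb8 acts in the spinal cord and in a microglial lineage, and Hoxb7 in the trunk. The log2 signal of the shared probe set was 5.33, 5.05 and 4.90 without RA, 4.95, 5.33 and 5.35 at 2 h, 5.48, 5.84 and 5.97 at 4 h, and 5.58, 5.93 and 6.77 at 6 h. The 2 h arrays overlapped with the untreated arrays and those of 4 and 6 h did not, and 6 h replicate C was the only array above the median of all values. The differences were 0.11 ± 0.25 (SE, adjusted p = 0.867), 0.67 ± 0.25 (adjusted p = 0.0839) and 1.00 ± 0.25 (adjusted p = 0.0123) at 2, 4 and 6 h. Without 6 h replicate C the 6 h difference was 0.66 (adjusted p = 0.0277). In a fit of only the 6 arrays compared the probe set passed at 4 h (adjusted p = 0.0316) and not at 6 h (adjusted p = 0.0506). Hoxb7's own probe set 1427494_at spanned 4.15 to 4.25 without RA, 4.17 to 4.50 at 2 h, 4.22 to 4.37 at 4 h and 4.25 to 4.34 at 6 h. Its 6 h arrays lay just above the untreated ones, and those of 2 and 4 h overlapped with them. It differed by 0.11 ± 0.084, 0.08 ± 0.084 and 0.09 ± 0.084, none of which passed (adjusted p = 0.552, 0.601 and 0.521). Both probe sets carry signals under the median of all values on nearly all arrays, and the annotation does not assign the 6 h rise to either gene.

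Hoxb6, expressed in trunk mesoderm, and Hoxb9, which helps to pattern the rib cage, did not pass. Hoxb6 (1451660_a_at) lay at 5.17 to 5.46 without RA, 5.33 to 5.80 at 2 h, 5.33 to 5.99 at 4 h and 5.60 to 6.20 at 6 h. Its arrays of 2 and 4 h overlapped with the untreated ones and those of 6 h did not. The differences were 0.16 ± 0.19 (SE), 0.33 ± 0.19 and 0.52 ± 0.19, with adjusted p = 0.717, 0.265 and 0.0672. The last passed in 2 of 13 alternative fits, 1 of them without 6 h replicate A (adjusted p = 0.0423). Without 6 h replicate C or untreated replicate B it did not (adjusted p = 0.233 and 0.192). Hoxb9 (1452317_at) lay at 5.97 to 6.05 without RA, 6.02 to 6.16 at 2 h, 5.98 to 6.15 at 4 h and 5.96 to 6.21 at 6 h, overlapping at every time. Its differences were 0.05 ± 0.081, 0.05 ± 0.081 and 0.08 ± 0.081 (adjusted p = 0.829, 0.78 and 0.582). An adjusted p above the threshold leaves changes of Hoxb6 and Hoxb9 RNA within these errors possible.

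**Figure D2:**
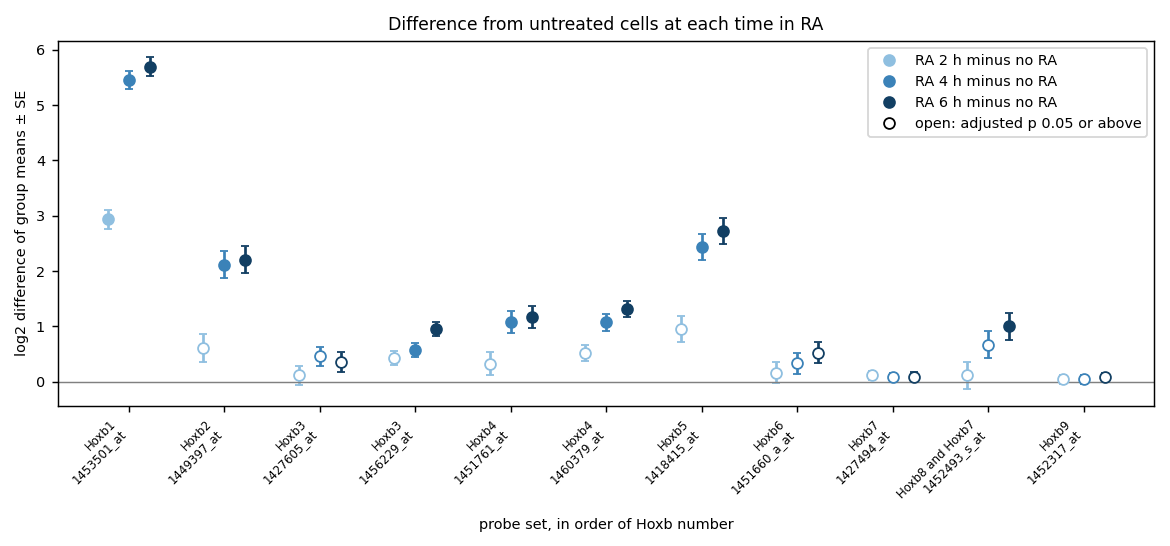
Log2 difference of group means, RA minus no RA, with its SE (y axis) for each Hoxb probe set in order of gene number (x axis). Each probe set has 3 points, for 2, 4 and 6 h, filled where the adjusted p is under 0.05. Hoxb1 is filled at all 3 times and reaches 5.69, 7 probe sets are filled at 6 h, and Hoxb9 stays at or below 0.08.

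The log2 differences at 6 h were set in order of size, which is a description of the deposited signals. They ran Hoxb1 (5.69), Hoxb5 (2.73), Hoxb2 (2.20), Hoxb4 (1.32 and 1.17), Hoxb8 with Hoxb7 (1.00), Hoxb3 (0.95), Hoxb6 (0.52), the second Hoxb3 probe set (0.36), Hoxb7 (0.09) and Hoxb9 (0.08). Within each array, Hoxb1 minus Hoxb5 was higher in RA than in untreated cells by 2.97, and Hoxb2 minus Hoxb4 (1460379_at) by 0.89, both with no overlap between the groups and both at the smallest exact permutation p that 3 against 3 arrays allow (p = 0.1, and 0.5 adjusted over 10 neighbouring pairs). The other 8 neighbouring pairs in this order overlapped, and differed by 0.014 to 0.52 (exact p = 0.2 to 1). Hoxb5 and Hoxb2 differed by 0.52 with exact p = 0.4. Hoxb5 was not tested against Hoxb3 or Hoxb4, and the exact p cannot go below 0.1. These tests therefore cannot decide whether the order of size departs from that of gene number. The log2 difference of Hoxb1 minus that of each of the 10 other probe sets was at 2 h 1.98 to 2.89, at 4 h 3.02 to 5.41 and at 6 h 2.97 to 5.61, and all 30 of these tests gave the smallest possible exact p of 0.1 (0.1 after adjustment). Most of these probe sets had untreated arrays under 6.07, Hoxb1 and Hoxb5 on all 3, and probe sets can differ in how steeply they report RNA, so these values do not rank the genes by change in RNA.

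The share of the 6 h difference that was present earlier was computed for the 7 probe sets called at 6 h, and is given without a test. It is a share on the log2 scale and not of the linear signal, and the probe sets start from different untreated levels. Hoxb1 had reached 51.5% of its 6 h log2 difference at 2 h and 95.8% at 4 h. For the other 6 probe sets called at 6 h the share at 2 h was 27.7% (Hoxb2), 44.2% (Hoxb3), 28.0% and 39.2% (Hoxb4), 34.8% (Hoxb5) and 11.4% (Hoxb8 with Hoxb7). At 4 h it was 96.1% for Hoxb2, 60.8% for Hoxb3, 91.9% and 81.4% for Hoxb4, 89.4% for Hoxb5 and 67.0% for Hoxb8 with Hoxb7. Leaving out single arrays moved some of these shares by over 1.5 times. The 2 h share of Hoxb2 was 16.2% without untreated replicate B, and that of Hoxb4 on 1451761_at spanned 10.5% (without 2 h replicate B) to 46.9% (without 2 h replicate C). For Hoxb8 with Hoxb7 the 2 h share spanned 1.99% (without untreated replicate C) to 24.3% (without 2 h replicate A), and the 4 h share was 101% without 6 h replicate C. For Hoxb1 the highest 2 h share without a single array was 52.6%. The step between 2 and 4 h passed for 5 of the 11 probe sets (Hoxb1, Hoxb2, both of Hoxb4 and Hoxb5), where 9.24% of all probe sets were called higher in that step. The 4 h arrays all lay above the 2 h arrays for 7 of the 11, against 19.7% of all probe sets. Between 4 and 6 h limma called 0 of the 11, against 0.104% of all probe sets called higher, and 1 had an unadjusted p under 0.05 (Hoxb3 on 1456229_at, 0.37 ± 0.13, adjusted p = 0.29). The difference was above 0 for 10 of the 11, and arrays were not paired by letter in this contrast, so a further small rise remains possible. Whether the second step of 2 h differed from the first was tested in 1 contrast. It ran between -0.41 ± 0.29 (SE) for Hoxb1 and 0.90 ± 0.43 for Hoxb2, and limma called 0 of the 11, with 0 at an unadjusted p under 0.05 and 5.64% of all probe sets called. That contrast compares the steps of 1 probe set at a time, and a difference in timing between members was not tested.

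Arrays of the same group differed in the level of many Hoxb probe sets together. At 6 h replicate C held the highest value of the group for 10 of the 11 and replicate A the lowest for 10, and at 4 h replicate A held the lowest for 10. The mean deviation of the 11 from their group mean was -0.28 for 6 h replicate A and 0.26 for replicate C, and -0.22 for 4 h replicate A. Over all probe sets the mean deviation of these arrays was -0.003, 0.0045 and -0.011. The ES cell markers had summed linear signals of 69891, 69911 and 67123 in 6 h replicates A, B and C. Their part in the spread of the Hoxb values was not tested.

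**Figure D3:**
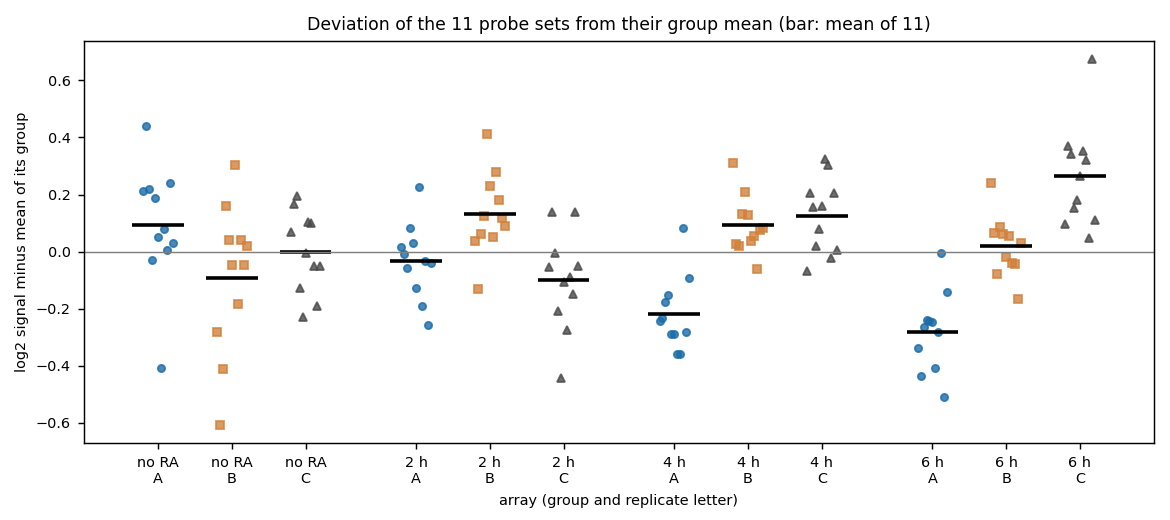
Log2 signal of each of the 11 probe sets minus the mean of its group (y axis), for the 12 arrays by group and replicate letter (x axis). Points are probe sets and bars their mean. The bar of 6 h replicate A is at -0.28 and that of 6 h replicate C at 0.26.

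For each of the 7 probe sets called by the F test, the 3 non-member genes with the most similar signal over the 12 arrays were found by Pearson correlation among 10084 probe sets of 1 gene that were also called. The arrays share 4 groups, so r is high for any gene that follows the same course, and it is given as a description. Hoxb1 was most like Foxp1 (r = 0.994), the DNA methyltransferase Dnmt3a (r = 0.992) and the orphan receptor Nr6a1 (r = 0.991), each with a smaller rise (1.77, 1.60 and 1.63 at 6 h). Hoxb5 was most like Ccdc171 (r = 0.987), Hoxa4 (r = 0.986) and Cgnl1 (r = 0.978), with Hoxa4 at 2.95 at 6 h. Hoxb2 was most like Prtg (r = 0.981), Myo1f (r = 0.977) and Slc39a3 (r = 0.975). Hoxb4 on 1460379_at was most like the histone demethylase gene Kdm6b (r = 0.978), Folr1 (r = 0.974) and Hoxb13 (r = 0.970), and on 1451761_at like Bfar (r = 0.968), Mrps5 (r = 0.960) and Mrps34 (r = 0.957). Hoxb3 on 1456229_at was most like Lgals9 (r = 0.962), Cebpb (r = 0.942) and Mthfd2 (r = 0.940). The probe set of Hoxb8 with Hoxb7 was most like the cyclin gene Ccnd2 (r = 0.938), Cdk2ap1 (r = 0.930) and Mrpl9 (r = 0.927). Among the members, r with Hoxb1 was 0.956 for Hoxb5, 0.949 and 0.893 for Hoxb4, 0.943 for Hoxb2, 0.876 and 0.669 for Hoxb3, 0.750 for Hoxb8 with Hoxb7, 0.657 for Hoxb6, 0.370 for Hoxb9 and 0.330 for Hoxb7.

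Genes around and upstream of the cluster were read from 7 lists, with the brightest single-gene probe set for each gene. Over 18193 such genes, 1.25%, 11.2% and 13.3% were called higher at 2, 4 and 6 h and 0.781%, 12.5% and 13.1% lower, with medians of 0.0043, 0.0023 and -0.014. Of 13 genes flanking Hoxb1 to Hoxb9 on chromosome 11, 2, 6 and 7 were called higher at 2, 4 and 6 h and 0 lower, with medians of 0.10, 0.20 and 0.21. Hoxb13, the cluster's last gene, rose by 0.82 ± 0.11 (SE), 1.73 ± 0.11 and 2.12 ± 0.11 (adjusted p = 0.00244, 1.74e-06 and 2.37e-07). Calcoco2, an autophagy receptor gene beyond Hoxb13, rose by 0.78 ± 0.12, 1.53 ± 0.12 and 1.56 ± 0.12 (adjusted p = 0.00486, 6.06e-06 and 3.87e-06). On the other side, Skap1, the first gene beyond Hoxb1, had 0.06 ± 0.12, -0.11 ± 0.12 and -0.10 ± 0.12, and stayed below 6.07 on all 12 arrays. Snx11, a sorting nexin gene just beyond it, rose by 0.69 ± 0.085 and 0.46 ± 0.085 at 4 and 6 h (adjusted p = 0.000169 and 0.00195).

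In the Hoxa cluster, a paralogous set of genes, limma called 0, 4 and 5 of 9 measured genes higher at 2, 4 and 6 h and none lower, with medians of 0.18, 0.30 and 0.40, and 2 had an unadjusted p under 0.05 at 2 h. Hoxa5 rose by 2.75 ± 0.32 (SE) and 3.04 ± 0.32 at 4 and 6 h, Hoxa4 by 2.51 ± 0.21 and 2.95 ± 0.21, and Hoxa2 by 0.64 ± 0.13 and 0.80 ± 0.13. The Hoxa2 signal stayed below 6.07 on all 12 arrays. Of 15 measured Hoxc and Hoxd genes limma called 0 at any time, with 0 at an unadjusted p under 0.05 at each time. Their differences lay between -0.14 and 0.24 at 6 h. Most of these genes, Hoxd1 and Hoxd3 among them, were below 6.07 on all 12 arrays, where a change in RNA may be missed. Hoxc11, Hoxc12 and Hoxd4 were not measured. Hoxa4 and Hoxa5 are paralogues of Hoxb4 and Hoxb5. No test of the clusters against each other was made.

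Of the 6 RA receptor and RXR genes, 3, 4 and 5 were higher at 2, 4 and 6 h and 0 lower (medians 0.46, 0.61 and 0.67). Rarb, a receptor gene that is itself a known RA target, had 1.88 ± 0.16 (SE), 2.16 ± 0.16 and 1.73 ± 0.16, Rarg 0.78 ± 0.10, 1.46 ± 0.10 and 1.35 ± 0.10, and Rara 1.02 ± 0.091, 1.03 ± 0.091 and 1.01 ± 0.091, all past the threshold. Of 11 genes of RA synthesis, binding and breakdown, 3, 5 and 5 were higher and 0, 1 and 2 lower (medians 0.13, -2.5e-05 and 0.15). Cyp26a1, the RA-degrading enzyme, rose by 6.11 ± 0.087, 6.85 ± 0.087 and 6.46 ± 0.087. Dhrs3, a retinaldehyde reductase, was called at every time and had 2.14 ± 0.28 at 6 h, and Stra6, a retinol transporter, was called at 4 and 6 h and had 0.77 ± 0.11 at 6 h.

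Among 8 TALE homeobox genes, whose PBX and MEIS proteins bind DNA together with HOX proteins, 1, 4 and 4 were higher and 0, 1 and 2 lower (medians -0.030, 0.16 and 0.11). Meis2 rose by 1.12 ± 0.15 (SE), 2.59 ± 0.15 and 2.78 ± 0.15. Pbx2 and Meis1 rose at 4 h, by 0.83 ± 0.12 and 0.85 ± 0.16, and at 6 h, by 1.18 ± 0.12 and 1.11 ± 0.16. The Meis1 signal was below 6.07 on 11 of the 12 arrays. Pbx3 was called lower at 4 h (-0.95 ± 0.11) and 6 h (-0.49 ± 0.11), and Pbx4 at 6 h (-0.26 ± 0.083). Of 7 Cdx genes and hindbrain regulators, 1, 4 and 4 were higher and 0, 1 and 1 lower (medians 0.19, 0.41 and 0.55). Cdx1, a posterior regulator of Hox genes, rose by 2.61 ± 0.13, 3.49 ± 0.13 and 3.43 ± 0.13, and Gbx2, an anterior hindbrain gene, by 1.74 ± 0.23 and 1.70 ± 0.23 at 4 and 6 h. Egr2, which activates Hoxb2 in the third and the fifth hindbrain segments, fell by 1.50 ± 0.17 and 1.35 ± 0.17 at 4 and 6 h. A link between Egr2 and Hoxb2 in these cells was not tested.

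Marker lists gave the state of the cells beside these values. Of the 10 ES cell markers, 1, 0 and 0 were higher and 1, 6 and 6 lower at 2, 4 and 6 h (medians -0.034, -0.38 and -0.37), and Fgf4 fell by 1.31 ± 0.11 (SE) at 4 h and 1.33 ± 0.11 at 6 h. Klf4, the marker that was lower at 2 h too, fell by 1.16 ± 0.083 at 4 h and fell by 1.23 ± 0.083 at 6 h. Zfp42 fell by 0.50 ± 0.11 and 0.56 ± 0.11. The marker called higher at 2 h was Nanog, by 0.48 ± 0.081 (adjusted p = 0.00951). It had 0.21 ± 0.081 at 4 h and 0.10 ± 0.081 at 6 h, neither called. Pou5f1 was not called at any time, with -0.0052, 0.038 and 0.089 at 2, 4 and 6 h. Of the 19 feeder fibroblast markers, limma called 0, 3 and 1 higher and 0 lower (medians 0.25, 0.27 and 0.19), and 6 had an unadjusted p under 0.05 at 2 h. The 3 called at 4 h were Lox, Col5a2 and Twist1, at 0.74 ± 0.22, 0.52 ± 0.17 and 0.37 ± 0.093, and Twist1 alone was called at 6 h (0.33 ± 0.093). Their part in the Hoxb values was not tested.

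**Figure D4:**
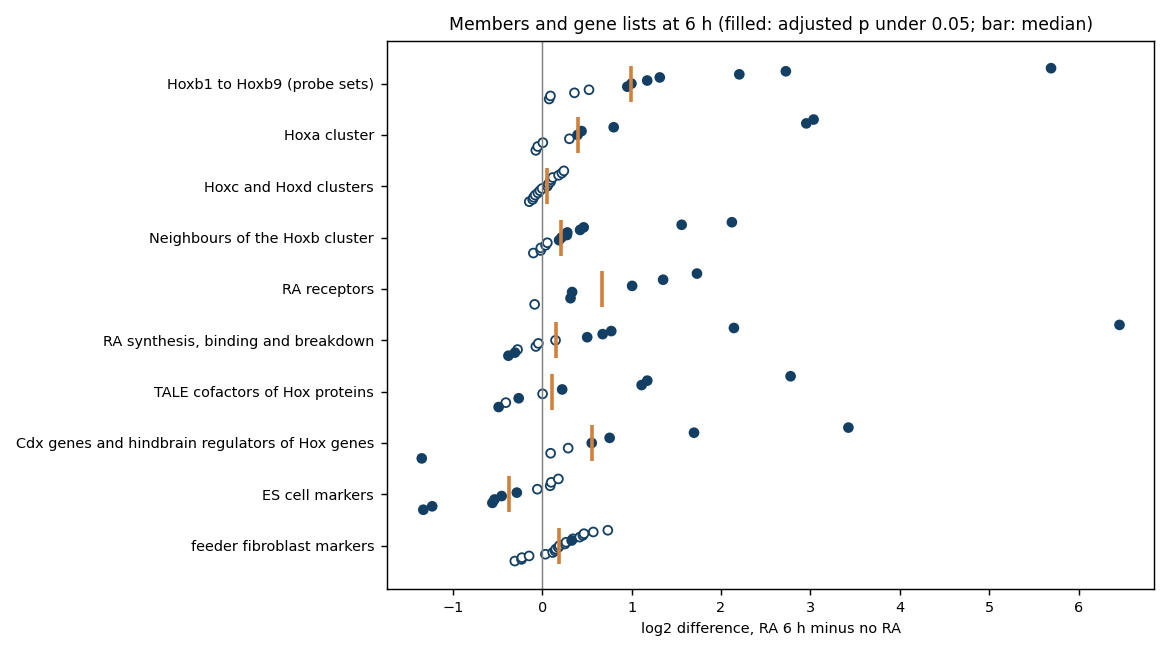
Log2 difference, RA 6 h minus no RA (x axis), for the 11 Hoxb probe sets and for the genes of 9 lists (rows). Points are filled where the adjusted p is under 0.05, and bars mark medians. The Hoxb row has its median at 1.00, that of the Hoxc and Hoxd genes lies at 0.057 with no filled point, and that of the ES cell markers at -0.37.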

How the data were processed

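RNA of 12 arrays was labelled with biotin from 200 ng of total RNA, per the labels' protocols. The authors deposited 1 log2 signal per probe set and array, and limma 3.4.3 is the tool named in the submitters' processing notes. The method of summarization and normalization is not given in the sources used here, and the deposited values were used unchanged. The 64 control probe sets were left out. Genes are those of the platform annotation (34945 probe sets with 1 gene, 932 with several, 9160 with none). A linear model with 1 mean per group was computed by limma 3.58.1 (R 4.3.3, moderated by eBayes with 4.23 prior beside 8 residual degrees of freedom) on 45037 probe sets and all 12 arrays, and p-values were adjusted by Benjamini-Hochberg over them. Samples were grouped by their titles.

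The members and the 9 lists (98 of 109 genes measured) were chosen with earlier results of these data known. All member probe sets are named. From each list, up to 3 called genes with the largest absolute difference at 6 h are named. Hoxb13 is added, and Skap1 for its place in the cluster. Nanog, Pou5f1, Pbx3 and Pbx4 are added because they went against the named genes of their lists or held level. These 4 genes and Skap1 were chosen after their values were seen. No gene was named from a probe set of several genes except the shared Hoxb8 and Hoxb7 one. In simulated data with 200 changed probe sets among 45037, the test found 100%, 97% and 99% of those changed by 1 on the log2 scale in the comparisons of 2, 4 and 6 h, with 12, 13 and 6 false calls. The simulation changed probe sets drawn at random and gave each its own normal noise. Many Hoxb probe sets moved together on an array, so these rates do not show that an uncalled Hoxb probe set lacked such a change. Differences between probe sets were tested by exact permutation over arrays, which number 3 per group and so limit the precision.

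Same-lettered arrays of different groups were checked for pairing. Their deviations from the group means correlated between -0.16 and 0.26 over 18 pairs, over 0.1 in 4, and the own letter was highest in 7. Between 4 and 6 h the same-letter r was 0.19, 0.034 and 0.26 for A, B and C, each above the r with other letters. The letters were not taken as pairs in the main fit, which may miss changes between 4 and 6 h. Alternatives were other normalizations, 1 probe set or a mean per gene, filters, variance models, array weights, the replicate letter as a block, fits of the groups compared, another threshold and leaving out each array. Figures were drawn with matplotlib 3.10.9.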

Additional observations from a re-analysis of the deposited data

Results flagged for a closer look

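The log2 difference from no RA at 4 h differed from that at 2 h for 5 probe sets. This is the contrast of 4 h with 2 h, in which the shared untreated arrays cancel. Time in RA and time in the differentiation medium cannot be told apart in it. The log2 difference at 4 h minus that at 2 h was 2.52 for Hoxb1, 1.51 for Hoxb2, 1.49 for Hoxb5, and 0.75 (1451761_at) and 0.56 (1460379_at) for Hoxb4. Groups of 3 arrays are too small for a test of single outlying arrays.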

How the results depend on the processing

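The counts of called Hoxb probe sets kept within 1.5 times of 1, 6 and 7 (2, 4 and 6 h against no RA), 5 (4 h against 2 h), 0 (6 h against 4 h) and 7 (F test) with quantile normalization, median centring, probe sets without a cross-hybridization suffix, trended and robust variance, means of probe sets per gene and, for the comparisons of 2 groups, fits of only the 6 arrays compared. The F test was not run on 6 arrays or without single arrays. At 2 h the count was 2 when probe sets had to reach the median of all values on at least 3 of the 12 arrays (the dim filter), with array weights and with the replicate block, Hoxb5 being the addition each time. The replicate block also added Hoxb6 at 6 h, giving 8, and moved no other call against no RA. At 6 h and in the F test it was 4 with the brightest probe set per gene and 4 with the dim filter, which keep 8 and 6 of the 11 probe sets. At an adjusted p under 0.01 the count for 4 h against 2 h was 3. Leaving out single arrays gave 1 to 2, 6 to 6 and 7 to 8 at 2, 4 and 6 h against no RA, 3 to 5 for 4 h against 2 h and 0 to 0 for 6 h against 4 h. Fitting only the 6 arrays compared, the shared Hoxb8 and Hoxb7 probe set gained its call at 4 h (adjusted p = 0.0316) and lost it at 6 h (adjusted p = 0.0506). Hoxb1, Hoxb2, Hoxb3 (1456229_at), Hoxb4 and Hoxb5 were called at 4 and 6 h in every alternative at the 0.05 threshold that kept their probe set. Signs turned only for uncalled values near 0. With array weights Hoxb9 had 0.017 for 4 h against 2 h. Without single arrays, Hoxb3 (1427605_at) at 2 h against no RA spanned -0.090 to 0.23. For 4 h against 2 h, Hoxb7 spanned -0.11 to 0.057 and Hoxb9 -0.043 to 0.045. For 6 h against 4 h the spans were -0.098 to 0.30 (Hoxb2), -0.27 to 0.032 (Hoxb3, 1427605_at), -0.049 to 0.22 (Hoxb4, 1451761_at), -0.018 to 0.054 (Hoxb7), -0.0076 to 0.58 (Hoxb8 with Hoxb7) and -0.023 to 0.10 (Hoxb9). Other uncalled values that single arrays moved by over 1.5 times included Hoxb3 (1427605_at) at 4 h (0.25 without untreated replicate B) and at 6 h (0.15 without untreated replicate B and 0.19 without 6 h replicate C), and Hoxb6 at 4 h (0.18 without 4 h replicate C and 0.51 without 4 h replicate A). Hoxb4 (1451761_at) at 2 h was 0.22 without untreated replicate C, 0.12 without 2 h replicate B and 0.55 without 2 h replicate C. The cause was not tested.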
